A study of Arabidopsis thaliana with 9 samples.

Results

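Root transcripts of the Arabidopsis thaliana mutant line hcr1-2 were set against those of the wild type Col-0. The comparison took the 3 arrays titled hcr1-2 and the 3 arrays titled Col-0, which are 6 of the 9 arrays of the series, and the members were chosen by these titles alone. The 3 arrays of hcr1-1, a second mutant line of the same gene, entered the fit to help estimate the spread between arrays. Every plant, of Col-0 and of the mutants, was 21 days old and had grown in hydroponics with replete potassium at a pO2 of 11.1 ± 1.1%, so oxygen shortage was common to all groups and the comparison concerns genotype within it. Per the labels, each array held root RNA of a pool of 5 plants, the 3 samples of a genotype were biological replicates, and the mutants were in the Col-0 ecotype. The labels do not place the lesion of hcr1-2, and 1 line stands for the allele.

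HCR1 (HYDRAULIC CONDUCTIVITY OF ROOT 1, AT3G24715) is a kinase gene of the Raf-like group, known for setting how readily water passes through roots. When oxygen runs short, plant cells stabilise group VII ethylene response factors, which switch on a core set of hypoxia genes, among them enzymes of fermentation, calcium sensors and regulators that damp the response. Fermentation regenerates the NAD+ that glycolysis needs when respiration slows.

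Values were log2 signals, and differences are hcr1-2 minus Col-0 on that scale. Of 38408 rows on the array, 16746 were paired with exactly 1 gene and were tested with limma, and these rows stood for 16552 genes. The array named hcr1-2 replicate 1 stood apart from the others. Its Pearson r with the other 8 arrays averaged 0.986 across genes, against 0.988 to 0.991 for the rest, and its array weight was 0.47 against 0.79 to 1.47. It was the highest of the 9 arrays by at least 0.5 in 165 rows, of which 151 were dimmer than the median row, while the other arrays held that place in 7 to 44 rows. On the low side it stood apart less, being the lowest by at least 0.5 in 33 rows, against 5 to 29 for the other arrays. Results are therefore given with and without it. Few tissue markers were on tested rows. The mean of the 2 measured shoot markers ran from 4.44 to 4.67 in Col-0 and from 4.49 to 4.65 in hcr1-2. The mean of the 2 root hair markers ran from 4.02 to 4.51 and from 4.24 to 4.54, and no phloem or root cap marker was on a tested row. The mean of the 2 endodermis markers ran from 6.11 to 6.16 in Col-0 and from 6.13 to 6.32 in hcr1-2, and that of the 2 dividing cell markers from 4.71 to 4.94 and from 4.94 to 5.04. The xylem marker GUT2 ran from 6.49 to 6.65 and from 6.28 to 6.47. Their part in the results was not tested.

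In hcr1-2 against Col-0, no gene changed by limma with Benjamini-Hochberg adjustment over all rows (0.0% called), and the smallest adjusted p was 0.903. At an unadjusted p under 0.05 there were 904 rows (5.4%), 393 of them lower in hcr1-2 (2.35%) and 511 higher (3.05%). The largest differences nevertheless lay on the lower side. A fitted difference of -1 or beyond was found for 20 genes, and of 1 or beyond for 1 gene. At 1.5-fold or more there were 79 genes lower and 35 higher. Without hcr1-2 replicate 1, no gene passed (0.0%, smallest adjusted p 0.584), with 1131 rows at an unadjusted p under 0.05 (6.75%), 531 lower (3.17%) and 600 higher (3.58%), while 16 genes stood lower by 1 or more and 1 higher. The median 95% half-width of a log2 difference was 0.309.

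**Figure D1:**
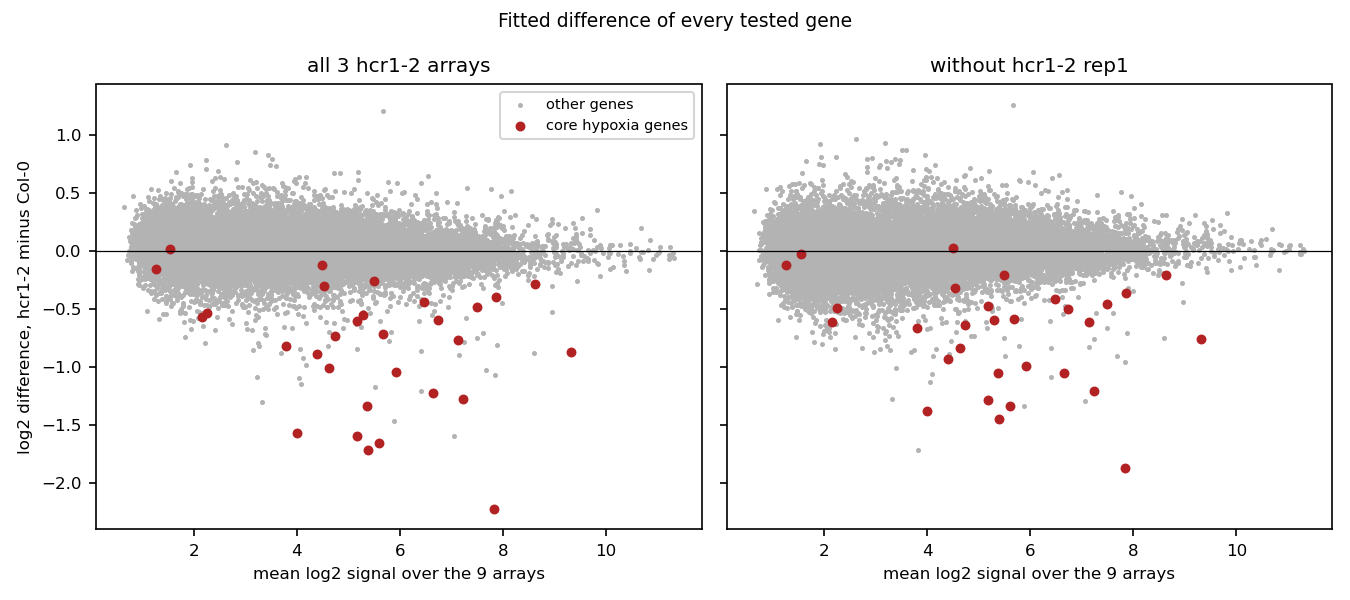
Fitted log2 difference between hcr1-2 and Col-0 (vertical) against mean log2 signal over the 9 arrays (horizontal) for every tested gene, with the 30 measured core hypoxia genes in red, using all arrays (left) and without hcr1-2 replicate 1 (right). Most genes scatter around 0, and the points furthest below 0 include many core hypoxia genes in both panels.

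The mutated gene itself was examined first. HCR1 signal was 4.60, 4.85 and 4.88 in Col-0 and 4.24, 4.38 and 4.30 in hcr1-2, and array values are listed from replicate 1 to replicate 3 throughout. The hcr1-2 arrays lay below the Col-0 arrays with no overlap, and the fitted difference was -0.48 (SE 0.228, 95% interval -0.98 to 0.025, limma adjusted p 0.903), which leaves 71.9% of the Col-0 signal. Without replicate 1 it was -0.44. In hcr1-1 the signal was 3.46, 3.25 and 2.36, below every array of the other genotypes. The row alone does not show whether intact transcript remained, since the lesion is not placed.

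The tested genes around HCR1 were examined next. Within 100 kb of it in the TAIR10.1 gene table there were 37 other tested genes, of which 2 had an unadjusted p under 0.05 against 5.4% of all rows. AT3G24730 overlaps the HCR1 model, and it had 4.69, 4.41 and 4.58 in Col-0 and 3.59, 3.35 and 3.95 in hcr1-2, a difference of -0.93 (SE 0.167). It had the smallest p of any gene in the comparison, and it did not pass the limma test after adjustment (adjusted p 0.903). Its hcr1-2 arrays lay well below those of Col-0, and the difference was -0.91 without replicate 1. Because the models overlap, signal of the pair may not be separable, which was not tested. In hcr1-1 AT3G24730 had 3.89, 4.29 and 4.27, a difference of -0.41 from Col-0, where HCR1 stood at -1.76. From hcr1-1 to hcr1-2 AT3G24730 thus went down (-0.52) and HCR1 up (1.28). The 36 remaining neighbours had differences from -0.46 to 0.30 with a median of 0.033, against a median of 0.011 over all rows. AT3G24870 was the other neighbour at an unadjusted p under 0.05, with 6.42, 6.50 and 6.14 in Col-0 and 6.61, 6.62 and 6.74 in hcr1-2.

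**Figure D2:**
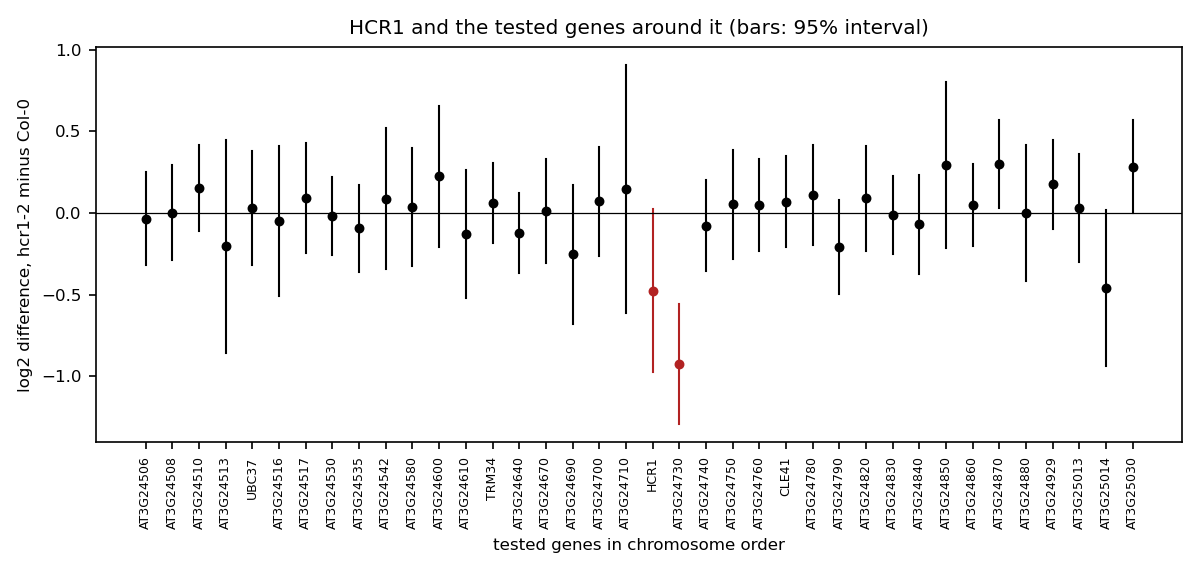
Fitted log2 difference between hcr1-2 and Col-0 (vertical, bars are 95% intervals) for HCR1 and the 37 other tested genes within 100 kb of it, in chromosome order (horizontal). HCR1 and the overlapping AT3G24730, in red, lie below the genes on either side, apart from AT3G25014, whose fitted value of -0.46 is close to that of HCR1.

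The core hypoxia genes, a list chosen with earlier results of these data known, stood out by size. Of 53 listed genes 30 were measured, and 29 of the 30 had a fitted value below Col-0, against 47.0% of all rows. Their median difference was -0.73, against 0.011 over all rows. At an unadjusted p under 0.05, 23 were lower and 0 were higher, where 2.35% of all rows were lower and 3.05% higher. In 9 the hcr1-2 and Col-0 arrays did not overlap, where 4.34% of all rows lay lower without overlap. By limma with adjustment over all rows 0 of the 30 were called, and members of this list vary together, so their count is not a count of independent genes.

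The same pattern of arrays ran through the list. Col-0 replicate 2 was the lowest Col-0 array in 29 of the 30 genes, and hcr1-2 replicate 3 was the highest hcr1-2 array in 25. Relative to the Col-0 mean, the median member stood at 0.23, -0.54 and 0.35 in the Col-0 arrays and at -0.90, -0.81 and -0.47 in the hcr1-2 arrays. Thus the lowest wild type array lay slightly below the highest mutant array, and the genotypes overlapped. The count at an unadjusted p under 0.05 moved with single arrays. It was 25 without Col-0 replicate 2 and 24 without hcr1-2 replicate 3. It was 8 without hcr1-2 replicate 1, 11 without hcr1-2 replicate 2, 9 without Col-0 replicate 1 and 5 without Col-0 replicate 3. The median stayed between -1.02 and -0.56 whichever of the 6 arrays compared was left out. The count was 13 with a trended and robust variance and 15 when all rows of the array were tested. Without hcr1-2 replicate 1, 29 of the 30 were still below Col-0 (48.1% of all rows) and 9 did not overlap, against 10.8% of all rows.

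**Figure D3:**
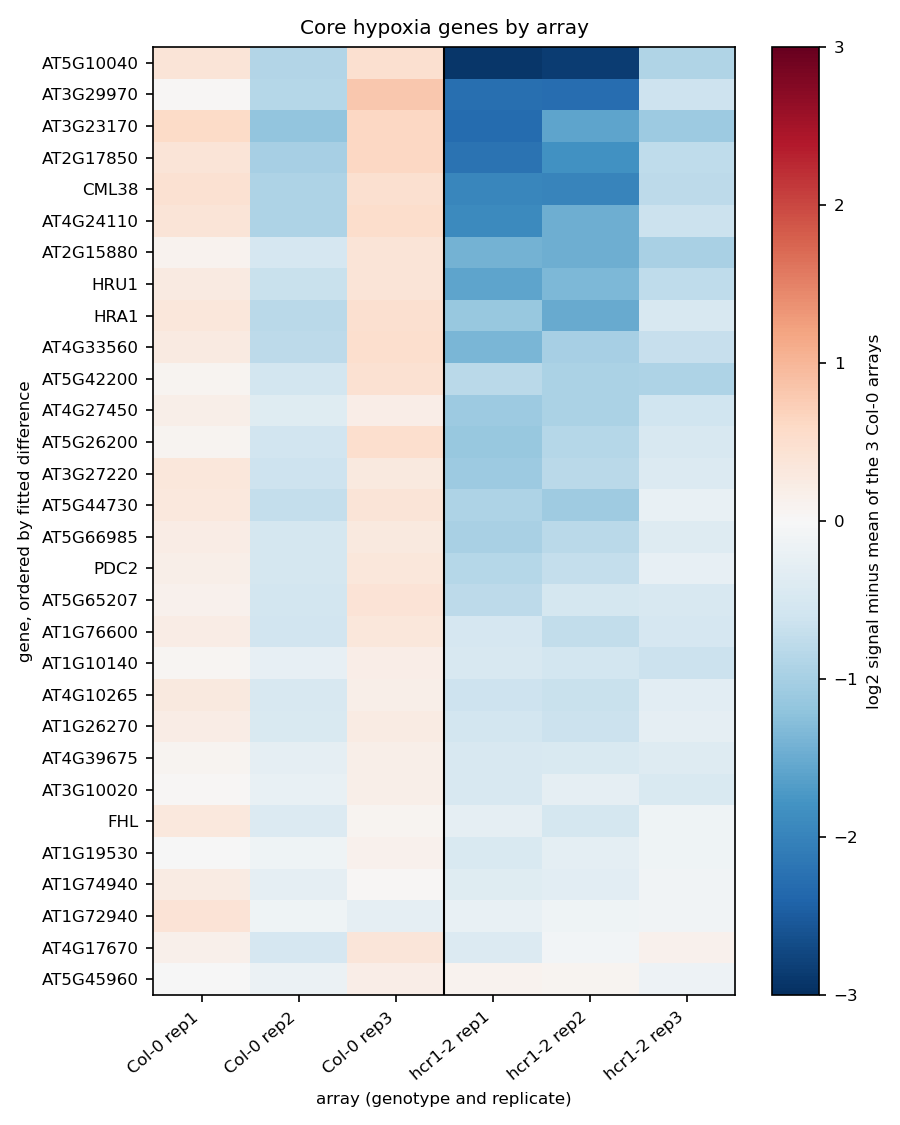
Log2 signal minus the mean of the 3 Col-0 arrays (colour) for the 30 measured core hypoxia genes (rows, ordered by fitted difference) in each of the 6 arrays compared (columns). The hcr1-2 arrays are blue in most rows, deepest in replicates 1 and 2, and Col-0 replicate 2 is pale blue in most rows too.

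AT5G10040 had the widest difference of any gene. Its signal was 9.26, 8.0 and 9.36 in Col-0 and 5.95, 6.03 and 7.96 in hcr1-2, a difference of -2.23 (SE 0.716), or 21.4% of the Col-0 signal. Its replicate 3 of hcr1-2 was close to replicate 2 of Col-0, and the difference was -1.88 without replicate 1. Its neighbour AT5G10050, which is not on the core list, followed it with 8.16, 7.12 and 8.13 in Col-0 and 5.59, 5.98 and 7.03 in hcr1-2 (-1.60, SE 0.545).

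Several members with wide differences overlapped between the genotypes, CML38, HRA1 and AT4G33560 below among them, and 4 others are given here. AT3G29970 had 6.23, 5.33 and 7.01 in Col-0 and 3.93, 3.90 and 5.57 in hcr1-2, and AT3G23170 had 6.94, 5.18 and 7.0 against 4.06, 4.80 and 5.28. AT2G17850 had 6.32, 4.93 and 6.55 against 3.71, 4.12 and 5.18, and AT4G24110 had 6.40, 5.10 and 6.55 against 4.10, 4.55 and 5.38. In each of these the second Col-0 array fell within the range of the hcr1-2 arrays.

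CML38 (AT1G76650) codes for a calcium sensor related to calmodulin, and its signal was 5.23, 3.86 and 5.26 in Col-0 against 2.83, 2.81 and 3.99 in hcr1-2. HRU1 (AT3G03270), of the universal stress protein family, had 7.51, 6.57 and 7.63 against 5.65, 5.89 and 6.48. HRA1 (AT3G10040) codes for a trihelix transcription factor that holds the low-oxygen response back, and it had 6.76, 5.62 and 6.91 against 5.29, 4.92 and 5.94. HRU1 was without overlap by a narrow margin, while CML38 and HRA1 each overlapped through Col-0 replicate 2 and hcr1-2 replicate 3.

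The 3 members with the smallest p had smaller differences than those above. AT5G42200 had 4.89, 4.26 and 5.27 in Col-0 and 4.0, 3.86 and 3.89 in hcr1-2 (-0.89, SE 0.239). AT1G10140 had 5.72, 5.42 and 5.87 against 5.19, 5.11 and 5.03 (-0.56, SE 0.157), and AT3G10020 had 8.11, 7.85 and 8.25 against 7.59, 7.80 and 7.62 (-0.40, SE 0.125). In all 3 the genotypes did not overlap, and the differences without replicate 1 were -0.93, -0.60 and -0.36. AT4G27450 had 9.92, 9.38 and 9.96 against 8.67, 8.81 and 9.16, and AT2G15880 had 7.98, 7.38 and 8.27 against 6.46, 6.42 and 6.91. These again showed no overlap. AT4G33560 had 5.37, 4.30 and 5.60 against 3.73, 4.09 and 4.41 and overlapped. At the other end of the list, picked for that place, AT5G45960 and AT1G72940 were dim and stood at 0.01 and -0.16, and AT4G17670 stood at -0.13.

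Beyond the core list, 10 further genes stood lower by 1 or more. In all 20 genes of that size Col-0 replicate 2 was the lowest Col-0 array, and in 19 hcr1-2 replicate 3 was the highest hcr1-2 array. Of the 20, 9 had no overlap, which their choice by size favours, where 4.34% of all rows lay lower without overlap. The sizes of these genes follow from how they were picked. AT3G11930 had 8.37, 7.68 and 8.54 in Col-0 and 6.92, 7.05 and 7.54 in hcr1-2, AT1G03610 had 7.18, 6.48 and 7.27 against 5.54, 5.52 and 6.25, and AT3G60520 had 6.13, 5.48 and 6.61 against 4.35, 4.74 and 5.60. The first pair had no overlap, and AT3G60520 overlapped. AT4G28811 had 4.49, 2.87 and 4.30 against 2.52, 2.41 and 2.80, AT3G48450 had 4.92, 3.74 and 5.18 against 3.30, 3.23 and 3.87, AT2G14247 had 6.86, 5.76 and 7.22 against 4.88, 4.70 and 5.85, and AT3G20395 had 3.74, 3.17 and 4.26 against 2.10, 2.65 and 3.16. Of these AT4G28811 and AT3G20395 were without overlap by a narrow margin. AT5G35940, a jacalin-related lectin, was the steadiest, with 4.69, 4.51 and 4.96 against 3.70, 3.55 and 3.62 (-1.10, SE 0.228).

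In glycolysis and fermentation 7 of 24 listed genes were measured, with a median of -0.22, 3 of them lower at an unadjusted p under 0.05, where 2.35% of all rows were, and 0 higher. PDC2 is on the core list too. AlaAT1 (AT1G17290), an alanine aminotransferase, had 8.50, 7.71 and 8.81 in Col-0 and 7.05, 7.0 and 7.77 in hcr1-2 (-1.07, SE 0.347). PDC2 (AT5G54960), a pyruvate decarboxylase, had 5.65, 4.94 and 5.81 against 4.61, 4.75 and 5.22, and the lactate dehydrogenase gene AT4G17260 had 7.15, 6.60 and 7.05 against 6.22, 6.48 and 6.71. All 3 overlapped between genotypes. PDC3 (AT5G01330), another pyruvate decarboxylase gene, stood at 0.12, and PPDK (AT4G15530), the pyruvate orthophosphate dikinase, at 0.03, and both were below 0 without replicate 1. None of the 7 passed after adjustment. Without replicate 1, 1 was lower at an unadjusted p under 0.05, where 3.17% of all rows were. No gene of the oxygen sensing list was on a tested row.

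The 15 lower genes with the smallest p held 0 core hypoxia genes. In each the genotypes did not overlap, as their choice favours, where 4.34% of all rows lay lower without overlap. Their unadjusted limma p values reached 0.00242. All 15 kept an unadjusted p under 0.05 without replicate 1, where 3.17% of all rows were lower at that p. That refit reuses the other arrays they were chosen with, so it is no separate check of them. Brighter ones included AT3G15090, with 5.75, 5.71 and 5.67 in Col-0 and 5.19, 5.21 and 5.39 in hcr1-2 (-0.45, SE 0.115), and AT1G49560, with 4.45, 4.06 and 4.58 against 3.13, 3.47 and 3.93 (-0.85, SE 0.214). AT2G34400 had 4.71, 4.09 and 5.08 against 3.34, 3.51 and 4.05, so that its genotypes nearly touched. KUP12 (AT1G60160), a potassium transporter, had 4.82, 4.75 and 4.86 against 4.43, 4.31 and 4.24 (-0.48, SE 0.125), with a narrow spread in each genotype. The dim ones included AT2G24285, with 2.49, 1.99 and 2.10 against 1.77, 1.38 and 1.39, AT5G54210, at -0.48, AT5G15240, at -0.57, AT2G28010, at -0.60, and AT1G72270, at -0.49. Their fitted values were also below Col-0 in hcr1-1, a comparison that shares the Col-0 arrays they were chosen with.

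On the higher side, the gene with the largest difference was S8H (AT3G12900). Its enzyme hydroxylates scopoletin to fraxetin, a coumarin that helps roots take up iron. It had 4.89, 4.53 and 5.72 in Col-0 and 6.15, 6.23 and 6.38 in hcr1-2, a difference of 1.21 (SE 0.328), and 1.26 without replicate 1. The hcr1-2 arrays were close together and above every Col-0 array, and the gene did not pass after adjustment (limma adjusted p 0.903). Of the 32 listed iron deficiency genes 8 were measured, with 6 above Col-0 and a median of 0.14, and 1 higher and 1 lower had an unadjusted p under 0.05. Over all rows 53.0% were above Col-0, and 3.05% were higher and 2.35% lower at that p. The peptide gene IMA2 (AT1G47395) had 3.16, 1.68 and 4.20 in Col-0 and 3.68, 3.59 and 3.99 in hcr1-2, and IMA1 (AT1G47400) had 1.63, 1.32 and 1.99 against 1.89, 1.99 and 2.51. The regulator gene PYE (AT3G47640) lay on the lower side, with 4.19, 4.10 and 4.22 against 3.68, 3.27 and 4.14. The Col-0 arrays of IMA2 spread more widely than its genotypes differed.

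The 15 higher genes with the smallest p were likewise all without overlap, where 6.1% of all rows lay higher without overlap (13.3% without replicate 1), as their choice favours, with sizes from 0.429 to 0.85. All 15 kept an unadjusted p under 0.05 without replicate 1, where 3.58% of all rows were higher at that p. That refit again reuses the other arrays they were chosen with. Of the 15, 8 were dimmer than the median row. AT3G25790 had 5.65, 5.91 and 5.59 in Col-0 and 6.29, 6.22 and 6.40 in hcr1-2 (0.59, SE 0.137). AT4G12545 had 4.76, 5.02 and 5.12 against 5.70, 5.60 and 5.44. SCPL32 (AT1G61130), a serine carboxypeptidase-like protein, had 4.29, 4.67 and 4.58 against 5.11, 5.20 and 5.24. These 3 were the brightest of the 15, and each had a gap between the genotypes. AT5G35732 had 3.42, 3.44 and 3.39 against 3.78, 4.07 and 4.16, and AT3G62510 had 2.51, 2.96 and 3.06 against 3.54, 3.66 and 3.87. CLPB2 (AT4G14670), a ClpB-type chaperone, was dim at 1.69, 1.39 and 1.56 against 2.19, 1.98 and 1.96, and AT3G19850, AT5G54030 and AT1G14048 stood at 0.43, 0.51 and 0.54.

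**Figure D4:**
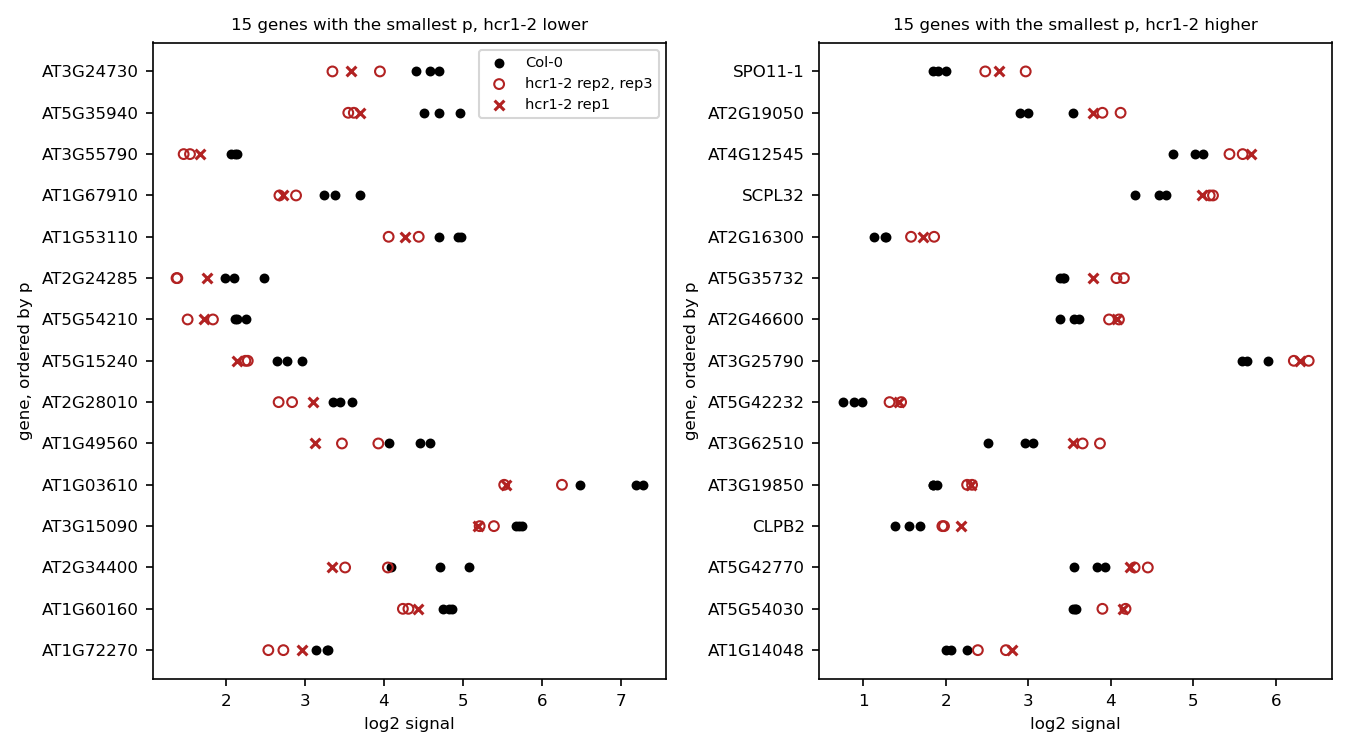
Log2 signal (horizontal) of the 15 lower and the 15 higher genes with the smallest unadjusted p in hcr1-2 against Col-0 (rows), with black points for the 3 Col-0 arrays, red circles for hcr1-2 replicates 2 and 3 and a red cross for hcr1-2 replicate 1. In every row the genotypes do not overlap, with the narrowest gap at AT2G34400 (4.09 in Col-0 against 4.05 in hcr1-2), and none passed the adjusted test.

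Among bright genes with larger differences on the higher side, the gene AT3G27510 had 4.93, 4.98 and 4.93 in Col-0 and 5.63, 5.77 and 5.49 in hcr1-2 (0.68, SE 0.182). AT4G29905 had 5.89, 6.70 and 6.27 against 6.90, 6.91 and 6.97, and AT1G33870 had 3.91, 4.77 and 4.70 against 5.18, 4.90 and 5.30. The first was tight in Col-0, while the other pair varied more among Col-0 arrays than among hcr1-2 arrays. AT3G02370 stood at 0.73, AT1G50970 at 0.63, AT1G80180 at 0.62 and AT3G54070 at 0.64, and only the last of these overlapped.

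Over all rows 53.0% had a fitted value above Col-0, and 51.9% without hcr1-2 replicate 1. Xyloglucan endotransglucosylase/hydrolases, which cut and rejoin wall xyloglucan, had 8 of 9 measured genes above Col-0, a median of 0.20 (0.23 without replicate 1) and 1 gene at an unadjusted p under 0.05, where 5.4% of all rows had one. XTH16 (AT3G23730) had 4.03, 4.69 and 4.33 in Col-0 and 4.79, 4.92 and 4.78 in hcr1-2, and XTH20 (AT5G48070) had 3.13, 3.03 and 3.43 against 3.25, 4.19 and 3.8. XTH18 stood at 0.35. Only XTH16 had no overlap. Of 22 measured expansins, which loosen walls, 1 was lower at an unadjusted p under 0.05, EXPA23 at -0.43, and the median was 0.07. Without replicate 1 it was -0.28 and no longer among them. Then 4 other expansins were lower at an unadjusted p under 0.05, where 3.17% of all rows were. Of the 22, 11 lay below Col-0, against 48.1% of all rows, and the median was 0.01. Of the genes taken by the cellulose synthase symbol pattern, which also took a gene of another family by its spelling, 9 were measured and 0 reached an unadjusted p under 0.05, with CSLC6 at -0.22 and CSLD2 at 0.25.

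Of the UDP-glycosyltransferases, which attach sugars to small molecules, 38 of 51 measured genes were above Col-0, with a median of 0.09 and 2 at an unadjusted p under 0.05, or 3.92% of them against 5.4% of all rows. UGT73B2 (AT4G34135) had 1.68, 1.26 and 1.44 in Col-0 and 2.14, 1.89 and 1.82 in hcr1-2, and UGT73C7 (AT3G53160) stood at 0.40. The close relatives UGT73B5 and UGT73B3 stood on the other side, at -0.42 and -0.23. Of the glutathione S-transferases 11 of 14 were above Col-0 with a median of 0.12 and 0 at an unadjusted p under 0.05, and of 25 cytochrome P450 enzymes 16 were above, with CYP71B23 (AT3G26210) at 0.43. Without hcr1-2 replicate 1 the UDP-glycosyltransferases had 2 lower and 4 higher at an unadjusted p under 0.05. The glutathione S-transferases then had 1 lower and 1 higher, while 13 of the 25 P450 genes lay below Col-0. Over all rows without that array, 3.17% were lower and 3.58% higher at that p, and 48.1% lay below Col-0.

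Defence and signalling families gave similar counts. Of 73 measured defensin-like proteins, small cysteine-rich peptides, 51 were above Col-0 with all arrays and 35 were below without replicate 1, and LCR69 (AT2G02100), a bright member, had 7.36, 7.60 and 7.56 in Col-0 and 8.11, 8.07 and 7.94 in hcr1-2 (0.53, SE 0.163). Signalling peptides of the RALF, CLE and related families had 25 of 36 above Col-0 with all arrays and 19 of 36 below without replicate 1. Relative to the Col-0 mean, the median defensin-like gene stood at 0.06, 0.06 and -0.05 in the hcr1-2 arrays. The median signalling peptide gene stood at 0.15, -0.02 and -0.03. Only the latter was thus high in replicate 1 alone, and the cause was not tested. All 5 jacalin-related lectins with a JAL symbol were above Col-0, with JAL31 (AT3G16430) at 4.38, 4.39 and 4.10 against 4.75, 4.94 and 4.53. That contrasts in direction with the lectin AT5G35940 above.

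Of 7 measured WRKY transcription factors, 6 were below Col-0 with a median of -0.17. WRKY6 (AT1G62300) had 7.22, 6.99 and 7.22 in Col-0 and 6.51, 6.80 and 6.92 in hcr1-2, and WRKY41 (AT4G11070) had 3.93, 3.75 and 3.75 against 3.42, 3.31 and 3.66. Both were without overlap and had an unadjusted p under 0.05, where 4.34% of all rows lay lower without overlap and 2.35% had such a p on the lower side. Without replicate 1 no WRKY gene had one. Of 6 calmodulin-like proteins CML38 was lower, as above, while CML43 (AT5G44460) had 2.27, 2.60 and 1.87 against 2.90, 2.66 and 2.64. Of 13 auxin response and transport genes 0 reached an unadjusted p under 0.05, with GH3.1 at -0.29. Without replicate 1 the auxin genes had 3 lower and 1 higher, where 6.75% of all rows had an unadjusted p under 0.05. Beside AUR2, described below, families with fewer than 5 measured genes held LBD29 (AT3G58190), at 0.38, and CYCJ18 (AT2G01905), at 0.28. Both had an unadjusted p under 0.05, where 3.05% of all rows were higher at that p, and LBD29 overlapped between genotypes. DREB2C (AT2G40340), at -0.53, did not reach that p. SCPL32 was the only gene of 7 measured serine carboxypeptidase-like proteins at an unadjusted p under 0.05 (14.3%), against 5.4% of all rows.

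**Figure D5:**
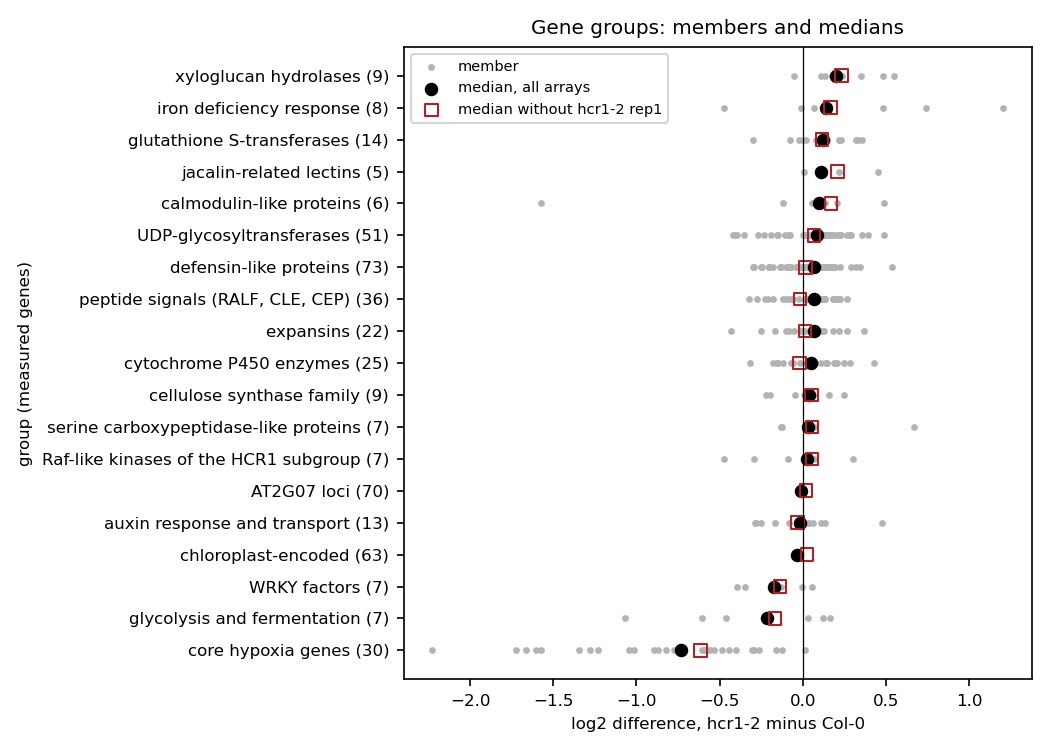
Fitted log2 difference between hcr1-2 and Col-0 (horizontal) for the gene groups with at least 5 measured genes (rows, with the number measured). Grey points are members (not drawn for the AT2G07 and chloroplast groups), black points the group median with all arrays and red squares the median without hcr1-2 replicate 1. Only the core hypoxia genes have a median beyond 0.5 in size, and the medians of the chloroplast, AT2G07, P450 and signalling peptide groups change sign without that array.

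The Raf-like kinases closest to HCR1 were all measured. RAF16 (AT1G04700) had 3.30, 3.50 and 3.51 in Col-0 and 3.69, 3.65 and 3.87 in hcr1-2, a difference of 0.30 (SE 0.113) with no overlap. RAF35 (AT5G57610) had 4.54, 4.77 and 4.53 against 4.11, 4.26 and 4.60, and the remaining 4 lay from -0.09 to 0.07. None passed after adjustment. In the endodermis, the barrier cell layer of the root, the receptor kinase gene GSO1 (AT4G20140) had 5.56, 5.72 and 5.68 against 5.93, 6.13 and 5.92, while SGN1 (AT1G61590) had 6.65, 6.55 and 6.64 against 6.32, 6.51 and 6.44. These partners of barrier formation lay on opposite sides of Col-0, and the acyltransferase gene FACT (AT5G63560) stood at -0.06. Of the dividing cell markers the mitotic kinase gene AUR2 (AT2G25880) had 4.0, 3.58 and 3.82 against 4.24, 4.14 and 4.18, and AUR1 (AT4G32830) stood at -0.01. Of the mitochondrial stress list HSP23.5 (AT5G51440), a small heat shock protein, had 3.82, 2.93 and 4.09 against 2.69, 2.79 and 2.97, and the alternative NAD(P)H dehydrogenase gene NDB2 (AT4G05020) stood at -0.08.

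The medians of the organelle groups were close to 0 and changed sign when hcr1-2 replicate 1 was left out. Of 63 chloroplast-encoded genes 44 were below Col-0 with all arrays and 21 without replicate 1, where 47.0% and 48.1% of all rows were. Their medians were -0.04 and 0.03. Relative to the Col-0 mean, the median chloroplast-encoded gene stood at -0.15, -0.03 and 0.08 in the hcr1-2 arrays, and the cause was not tested. The 70 measured AT2G07 loci lie where mitochondrial sequence is copied into the nuclear genome, so their signal may be shared with mitochondrial genes. They had a median of -0.01, with 3 lower and 3 higher at an unadjusted p under 0.05, where 2.35% and 3.05% of all rows were. Without replicate 1 their median was 0.02, with 1 lower and 5 higher at that p, against 3.17% and 3.58% of all rows.

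The genes in which hcr1-2 replicate 1 lay furthest from the other 8 arrays were dim where it was high. AT4G04110 had 3.36 in that array and 1.44 and 2.20 in the other hcr1-2 arrays, AT1G66310 had 2.63 against 1.37 and 1.33, and the carboxypeptidase-like gene scpl39 (AT3G52020) had 2.90 against 1.33 and 1.28. Col-0 arrays of these 3 lay between 1.28 and 1.83. Where the array was low the genes were brighter. AT5G14580 had 4.87 against 5.75 and 5.75, AT2G31580 had 4.24 against 5.25 and 4.94, and AT5G10110 had 3.64 against 4.37 and 4.36. In each of these the other hcr1-2 arrays lay near Col-0, and the difference without replicate 1 was -0.07, -0.07 and -0.10. In other genes of this kind hcr1-2 replicate 3 lay above every Col-0 array. AT2G32070 had 4.80 against 5.68 and 6.13, with 5.82, 5.54 and 5.64 in Col-0. Its difference was -0.13 with all arrays and 0.24 without replicate 1.

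Leaving that array out also brought forward genes on which the 3 hcr1-2 arrays were divided. AT1G48720 had 4.36, 3.62 and 4.29 in Col-0 and 5.02, 2.26 and 2.48 in hcr1-2, so the difference was -0.84 (SE 0.565) with all arrays and -1.72 (SE 0.246) without replicate 1, where it had the smallest p of all genes and still missed the adjusted threshold (limma adjusted p 0.584). AT1G59950 had 2.33, 2.15 and 2.33 against 2.68, 1.55 and 1.59, and AT3G46480 had 2.16, 2.00 and 2.21 against 2.37, 1.35 and 1.61. In all 3 the first hcr1-2 array was the highest of the 6 and the other pair the lowest. AT2G24990 went the other way, with 3.20, 2.98 and 2.85 against 2.88, 3.61 and 3.94. On these genes replicate 1 and the other hcr1-2 pools disagreed in direction, and the cause was not tested.

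In hcr1-1 the median core hypoxia gene stood at -0.37 relative to Col-0, with its 3 arrays far apart. Relative to the Col-0 mean, the median member stood at -0.08, -0.94 and 0.01 in them. Replicate 2 of hcr1-1 had the lowest median of the 9 arrays, with 26 of the 30 below the lowest Col-0 array. In replicates 1 and 3 of hcr1-1 there were 4 and 2. Set against hcr1-1, the hcr1-2 value was the lower in 27 of 30 (48.2% of all rows), with 2 at an unadjusted p under 0.05 and 0 by limma after adjustment. Between the mutant lines limma called 0 rows by adjusted p, while 893 had an unadjusted p under 0.05 (5.33%). HCR1 itself was higher in hcr1-2 by 1.28 (unadjusted limma p 0.00014).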

How the data were processed

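Per the labels, root RNA (100 ng per array) was hybridised to Affymetrix Arabidopsis Gene 1.1 ST arrays, 1 per sample. The authors deposited log2 values, and the submitters' processing notes name Affymetrix Expression Console and RMA, a method that removes background, gives all arrays one common distribution and summarises the probes of a row. No version, and no genome build, is given in the sources used here. Equal distributions remove any difference in total RNA, and fewer cells of a type cannot be told apart from less RNA per cell. Precision is limited by how few arrays there are.

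Gene names came from GEO's platform annotation, updated by Entrez number with a RefSeq table of TAIR10.1 (16601 of 16746 rows matched). 758 rows with several genes and 20904 unlisted rows were not tested. A gene with several rows is represented by the row with the highest mean. Groups came from the titles. limma 3.58.1 in R 4.3.3 was fitted to all 9 arrays, with two-sided tests and Benjamini-Hochberg adjustment at 0.05, and was tested on simulated data. No batch was recorded in the sources used here.

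The members and lists were chosen with earlier results of these data known. Named were HCR1, the 15 genes per direction with the smallest p, the 10 per direction with the largest difference among brighter genes, up to 10 core hypoxia genes and 4 per other list, the 8 genes per direction in which hcr1-2 replicate 1 stood furthest apart, and the neighbours of HCR1. Further genes lower by 1 or more, and those brought forward without replicate 1, were chosen after their values were seen. Of 41 families picked by gene symbol, 15 had no measured gene and 13 had fewer than 5. Alternatives were other fits, scalings, filters and thresholds, and leaving out each of the 6 arrays compared. The hcr1-1 arrays were not left out singly.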

Additional observations from a re-analysis of the deposited data

How the results depend on the processing

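No gene passed limma's adjusted threshold with all arrays or under any alternative run, nor at an adjusted p of 0.1. The smallest adjusted p ran from 0.188, with the replicate block, to 1 with a fold threshold of 1.5. The count at an unadjusted p under 0.05 was 904 with all arrays (5.4%). It was 588 of 8373 rows (7.02%) when dim rows were left out and 1942 of 38408 (5.06%) when all rows were tested. Both the number of rows tested and the share thus differed. Leaving out each of the 6 arrays compared gave counts from 637 to 1409, the highest without hcr1-2 replicate 3, and 0 to 0 after adjustment. HCR1 then ranged from -0.57 to -0.42 and the core hypoxia median from -1.02 to -0.56. For 124 of the named genes there were 1697 values under the alternatives, of which 22 changed sign and 1675 did not. No named gene passed the adjusted threshold, so none had a call to lose. The AT5G45960 log2 fold change in hcr1-2, 0.014 with all arrays, was -0.011 with quantile normalization and -0.007 with median centring, and ranged from -0.072 to 0.11 as arrays were left out, with -0.029 and -0.022 without hcr1-2 replicates 1 and 2. The AT1G72940 log2 fold change in hcr1-2 ranged from -0.295 to 0.048, and the AT4G17670 log2 fold change in hcr1-2 from -0.381 to 0.056, with 0.019 without hcr1-2 replicate 1. The AT4G32830 log2 fold change in hcr1-2 (AUR1) was 0.003 with quantile normalization and 0.018 with array weights, and ranged from -0.06 to 0.069, with 0.009 without Col-0 replicate 1. The AT4G15530 log2 fold change in hcr1-2 (PPDK) was -0.063 with array weights and ranged from -0.051 to 0.16, with -0.015 without Col-0 replicate 3 and -0.02 without hcr1-2 replicate 3. The AT3G52020 log2 fold change in hcr1-2 (scpl39) was -0.152 with array weights and ranged from -0.426, without hcr1-2 replicate 1, to 0.385. The AT1G66310 log2 fold change in hcr1-2 ranged from -0.038, without hcr1-2 replicate 1, to 0.612, and the AT5G01330 log2 fold change in hcr1-2 (PDC3) from -0.002, also without it, to 0.221. The AT4G05020 log2 fold change in hcr1-2 (NDB2) ranged from -0.141 to 0.028 and the AT5G63560 log2 fold change in hcr1-2 (FACT) from -0.113 to 0.041. The cause was not tested.

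Replicate numbers are shared between genotypes. Over all rows same-numbered arrays did not deviate together (r from -0.19 to 0.16), so they were not taken as pairs. That does not settle it for smaller sets of genes. On the core hypoxia list replicate 2 had the lowest median in Col-0 (-0.54) and in hcr1-1 (-0.94), while in hcr1-2 replicate 1 had (-0.90, with replicate 2 at -0.81). A shared replicate effect on that list was not tested. With the replicate number as a block, 0 genes passed, 926 had an unadjusted p under 0.05, HCR1 was at -0.48 and the core hypoxia median at -0.73.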
